A study of Mus musculus with 20 samples.

Results

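A set of 29 genes that are typical of cortical and striatal neurons was followed through RNA sequencing libraries of mouse hypothalamus. The genes were listed by symbol and found in the count table through their Ensembl identifiers and the GRCm38 annotation, and all 29 of them were found among its 55471 genes. All libraries came from C57BL/6 wild type mice and from a tissue labelled hypothalamus slice. Control mice ate control diet ad libitum (7 libraries), and the risperidone diet, given for 4 weeks, was eaten ad libitum (7 libraries) or by pair-feeding (6 libraries). Pair-feeding limits the food of an animal to the amount that a reference group eats, and there was no pair-fed group on control diet. Risperidone is an antipsychotic drug and an antagonist at dopamine and serotonin receptors. No label states that 1 library equals 1 mouse, and a p-value here reflects only how much these libraries differ, part of which may be technical.

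The cerebral cortex, hippocampus and parts of the amygdala form the pallium, whose excitatory neurons are built by transcription factors such as Emx1, Tbr1 and the Neurod family and load glutamate into vesicles with the transporter encoded by Slc17a7. Hypothalamic glutamate neurons mostly use another transporter, and several of the pallial factors are rare or absent in them. The striatum lies beside the pallium, and its projection neurons respond to dopamine through proteins such as Ppp1r1b (DARPP-32). Other genes of the set, among them Camk2a, Nrgn and Hpca, serve synapses and calcium signalling in many forebrain neurons, so that a level above 0 in hypothalamus is known for them.

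Of the 29 genes, 16 encode transcription regulators, 10 encode proteins of synapses, signalling or secretion, and 3 are genes of striatal projection neurons. The low-count filter left 28 of them for testing, and Emx1 did not pass it. Total counts lay between 17316043 and 18606543 in 19 libraries, and ad libitum risperidone library 3 held 9748005. The 29 genes took 0.597% of all counts in ad libitum risperidone library 1, 0.201% in library 2 of the same group and 0.121% to 0.173% in the other 18 libraries. Levels are counts scaled to TMM-adjusted library size (CPM). Library 1 of the ad libitum risperidone group stood apart in most of the genes, and the tests are given with and without it.

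The stretch of 250 bases before the start of transcription is shown for 3 of the genes that differed most between libraries, and for Rorb, which was not raised in library 1. Slc17a7 lies at chr7:45163949-45176142 on the plus strand in GRCm38. The windows are from RefSeq on GRCm38.p6, at chr7:45163671-45163920 for Slc17a7 on the plus strand and, on the minus strand, at chr11:98329646-98329895 for Neurod2, chr6:55681264-55681513 for Neurod6 and chr19:19111197-19111446 for Rorb. Each is written 5′ to 3′ along the gene. Capitals mark the E-box CANNTG, the core motif that basic helix-loop-helix proteins such as the Neurod factors bind, and which reads as CANNTG on both strands.
Slc17a7: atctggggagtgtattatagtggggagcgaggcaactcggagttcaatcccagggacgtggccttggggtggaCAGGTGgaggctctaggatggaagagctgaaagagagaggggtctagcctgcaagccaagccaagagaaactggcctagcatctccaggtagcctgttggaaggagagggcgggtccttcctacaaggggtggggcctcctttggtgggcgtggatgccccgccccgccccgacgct
Neurod2: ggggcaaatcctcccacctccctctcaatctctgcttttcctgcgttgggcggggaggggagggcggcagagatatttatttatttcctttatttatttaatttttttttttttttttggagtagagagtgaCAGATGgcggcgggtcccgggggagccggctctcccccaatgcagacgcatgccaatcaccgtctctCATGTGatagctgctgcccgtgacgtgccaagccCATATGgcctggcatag
Neurod6: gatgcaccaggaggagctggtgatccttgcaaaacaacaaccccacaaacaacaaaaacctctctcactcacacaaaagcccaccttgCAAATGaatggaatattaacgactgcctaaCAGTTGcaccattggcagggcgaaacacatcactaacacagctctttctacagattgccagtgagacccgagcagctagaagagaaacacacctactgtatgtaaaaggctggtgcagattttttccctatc
Rorb: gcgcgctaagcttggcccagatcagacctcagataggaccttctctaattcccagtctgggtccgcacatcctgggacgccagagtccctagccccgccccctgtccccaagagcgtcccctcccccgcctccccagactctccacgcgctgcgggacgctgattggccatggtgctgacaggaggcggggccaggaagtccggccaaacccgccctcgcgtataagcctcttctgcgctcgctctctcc
The Slc17a7 window held the motif 1 time, the Neurod2 window 3 times and the Neurod6 window 2 times, and the Rorb window held none. Whether the motif goes with the levels in library 1 was not tested. Of the genes not raised there, Prox1 held it 2 times and Rasgrp2 held none. The windows of Itpka, Fezf2 and Bcl11b, which were raised, held none. Counts for the genes, here and below, are for the first window listed. Another window of Prox1 held the motif 0 times, and another of Rorb held it 2 times. A window was matched for 23 of the 29 genes, and 16 of these 23 held CANNTG, against 66.2% of the 32851 windows of the table. The narrower form CAGATG, searched on both strands, was in 4 of the 23, against 14.4% of all windows. A match of letters does not show that a factor binds there, and a window without one says nothing about the factor.

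Library 1 of the ad libitum risperidone group held the highest level of the 20 libraries for 24 of the 29 genes, and 19.6% of all genes tested were highest there. In that library 22 of the 29 exceeded 2 times the median of the other 19 libraries, against 3.30% of all genes tested, and 14 exceeded 4 times. The median ratio over the 29 genes was 3.59. The ratios ran from 85.7 for Slc17a7 down to 0.706 for Rasgrp2. Library 2 of the same group followed at a distance. With library 1 left out, library 2 was the highest of 19 for 17 of the 29 genes, against 6.42% of all genes, with a median ratio of 1.28 to the other 18 libraries. Among the 15863 genes with a mean of 1 CPM or more, 8 of the 50 with the largest ratios in library 1, and 13 of the first 100, were members of the set.

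**Figure D1:**
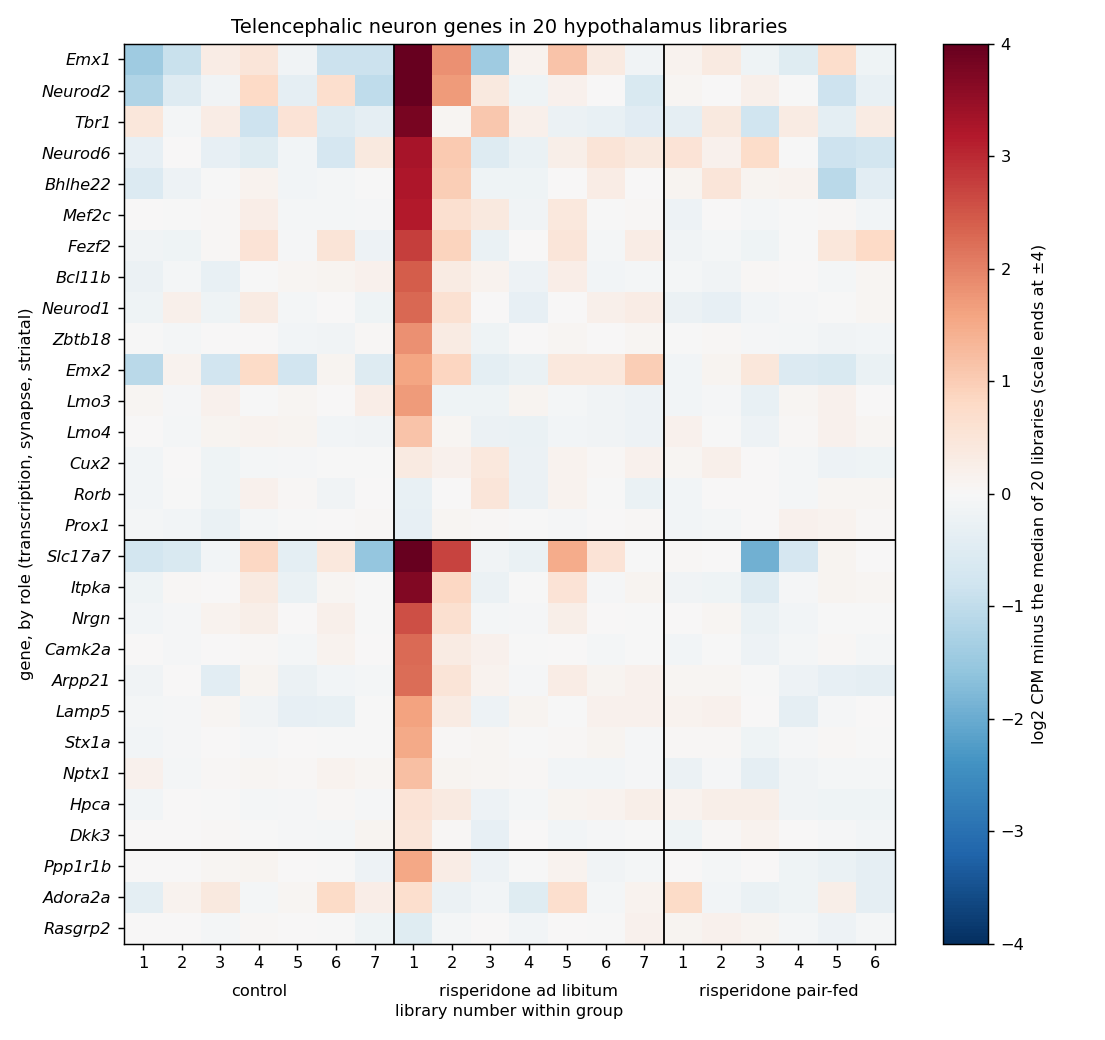
Log2 CPM of each of the 29 genes (rows, grouped by role) in each of the 20 libraries (columns, grouped by diet and feeding), as the difference from the gene's median over all 20 libraries. The column of ad libitum risperidone library 1 is raised in most rows, and Rorb, Prox1 and Rasgrp2 are at their lowest there.

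The transcription factors that mark the pallium were scarce in the control libraries and abundant in library 1. Neurod2, a basic helix-loop-helix factor of excitatory cortical neurons, had 0.675, 1.28 and 2.98 CPM as the lowest, median and highest of the 7 control libraries. In the ad libitum risperidone group it was at 42.4 CPM in library 1, and at 1.07 to 5.79 CPM (median 1.80) in the other 6. The pair-fed libraries held 0.891 to 1.94 CPM (median 1.70). Both risperidone groups overlapped with the control group, and library 1 was 25.1 times the median of the other 19. Neurod6, a related factor of cortical and hippocampal neurons, was at 1.13 to 2.46 CPM (median 1.47) in control libraries, 19.5 CPM in library 1, 1.27 to 3.96 CPM (median 2.34) in the other ad libitum risperidone libraries and 1.002 to 3.18 CPM (median 1.98) in pair-fed libraries. The highest of the other ad libitum values, 3.96 CPM, was that of library 2. Neurod1, the third of the family and a factor of granule neurons, was at 14.9 CPM in library 1 against 2.58 to 3.71 CPM (median 2.79) in control, 2.32 to 4.54 CPM (median 3.21) in the other ad libitum and 2.35 to 3.11 CPM (median 2.82) in pair-fed libraries. Part of the Neurod1 exons overlaps an exon of Gm26755 on the opposite strand and of Cerkl on the same strand, so its counts are less certain.

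Tbr1, a T-box factor of deep-layer cortical neurons, had 1.88 to 5.08 CPM (median 3.24) in the control libraries, 49.8 CPM in library 1, 2.47 to 7.46 CPM (median 3.26) in the other ad libitum libraries and 1.94 to 4.58 CPM (median 3.49) in the pair-fed libraries. Unlike the Neurod genes, its second highest value was in ad libitum library 3, the library of low depth, and library 2 was at 3.65 CPM. Emx1, a homeobox gene of the dorsal telencephalon, was counted in few reads outside ad libitum risperidone library 1. It had 98 reads in library 1, 19 in library 2 and 0 to 10 in each of the other 18 libraries, which is 5.93 CPM, 0.991 CPM and at most 0.564 CPM. Its relative Emx2 was at 4.17 CPM in library 1, 0.986 to 2.70 CPM (median 1.80) in the other ad libitum libraries, with library 7 highest and library 2 next at 2.50 CPM, 0.562 to 2.30 CPM (median 0.895) in control and 0.835 to 1.84 CPM (median 1.15) in pair-fed libraries. The Emx2 exons overlap the antisense gene Emx2os, and the strand setting of the counting is not given, so the genes cannot be told apart there.

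Fezf2, a zinc finger factor of neurons that project below the cortex, was at 15.8 CPM in library 1 and at 1.96 to 3.35 CPM (median 2.18) in control, 1.83 to 4.28 CPM (median 2.54) in the other ad libitum and 1.997 to 4.02 CPM (median 2.17) in pair-fed libraries. Bhlhe22, a further basic helix-loop-helix factor, was at 52.4 CPM in library 1, 10.7 CPM in library 2, 3.65 to 5.96 CPM (median 5.16) in control and 2.51 to 7.62 CPM (median 5.85) in pair-fed libraries. Bcl11b, a zinc finger factor of deep-layer and striatal neurons, was at 80.4 CPM in library 1 against 12.05 to 16.8 CPM (median 14.8) in control, 12.96 to 18.8 CPM (median 15.2) in the other ad libitum and 13.3 to 15.6 CPM (median 14.6) in pair-fed libraries. For Fezf2 and Bcl11b the control, pair-fed and remaining ad libitum libraries overlapped, with library 1 above all of them, and for Bhlhe22 library 2 stood between. Mef2c, an activity-regulated factor that is also made by microglia and vessels, was at 258 CPM in library 1 and 45.0 CPM in library 2. Its control libraries held 27.1 to 35.0 CPM (median 28.4) and its pair-fed libraries 25.1 to 29.5 CPM (median 27.9).

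The remaining transcription regulators were raised up to 3.59 times in library 1 (Zbtb18) or not raised. Zbtb18, a repressor needed for cortical development, was at 146 CPM there against 36.1 to 51.8 CPM elsewhere. Lmo3 and Lmo4, which encode LIM-only adaptor proteins, were at 238 and 92.0 CPM there. In the other 6 ad libitum libraries Lmo3 was at 64.1 to 80.2 CPM (median 66.3) and Lmo4 at 34.7 to 43.7 CPM (median 37.2), against control medians of 77.1 and 42.7 CPM. Cux2, a factor of upper-layer neurons, was at 55.8 CPM in library 1, but its highest level of 57.9 CPM was in library 3. Rorb, a nuclear receptor of layer 4 neurons, had its lowest level of the 20 libraries in library 1 at 32.1 CPM, and controls held 34.8 to 44.4 CPM (median 39.3). Prox1, a homeobox gene of hippocampal granule cells, was also lowest in library 1, at 38.5 CPM against 40.6 to 49.5 CPM (median 45.8) in control libraries. Being lowest of the 20 in library 1 applied to 16.4% of all genes tested.

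Among the 10 genes of synapses, signalling and secretion, all were highest of the 20 libraries in library 1 and 8 exceeded 2 times the median of the others. Slc17a7, the vesicular glutamate transporter 1, was at 2.80, 6.36 and 14.9 CPM as the lowest, median and highest control library. In the ad libitum risperidone group it was at 699 CPM in library 1 (11557 reads), 55.1 CPM in library 2 and no lower than 6.85 CPM elsewhere, with a median of 10.1 CPM over the 6 libraries other than library 1. Pair-fed libraries held 2.10 to 8.96 CPM (median 8.47). Library 1 was 85.7 times the median of the other 19, and library 2 was 6.98 times the median of the remaining 18. Libraries 1 and 2, and library 5 at 23.4 CPM, lay above every control and pair-fed library, while the other 4 of their group were inside the control range.

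Nrgn, which encodes the calmodulin-binding protein neurogranin, was at 416 CPM in library 1, 109 CPM in library 2, 65.5 to 82.7 CPM (median 70.5) in control and 57.9 to 73.4 CPM (median 69.0) in pair-fed libraries. Itpka, an inositol trisphosphate kinase of dendritic spines, was at 81.0 CPM in library 1, 10.8 CPM in library 2, 5.08 to 7.85 CPM (median 6.10) in control and 4.21 to 6.62 CPM (median 5.73) in pair-fed libraries. Camk2a, a kinase subunit of excitatory synapses, was already at 532 to 614 CPM (median 562) in control libraries and reached 2689 CPM in library 1 (44470 reads) and 694 CPM in library 2. For these 3 genes libraries 1 and 2 were again above all control and pair-fed libraries, in the same order. Arpp21, a phosphoprotein regulated by cyclic AMP, was at 336 CPM in library 1, and the other 6 ad libitum libraries held 68.4 to 101 CPM (median 79.0) against 53.0 to 75.8 CPM (median 65.5) in control. All 7 ad libitum libraries were above the control mean for Arpp21, though their range overlapped with that of the controls. Its exons overlap 2900079G21Rik on the opposite strand.

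Stx1a, a SNARE protein of the presynaptic membrane, was at 152 CPM in library 1 against 46.8 to 56.9 CPM elsewhere. Lamp5, a membrane protein of forebrain neurons, was at 47.5 CPM against 11.9 to 19.2 CPM elsewhere. Nptx1, a neuronal pentraxin that binds glutamate receptors, was at 387 CPM against 130 to 187 CPM elsewhere. Smaller ratios were found for Hpca, the calcium sensor hippocalcin, with 192 CPM in library 1 and 168 CPM in library 2, and for Dkk3, a secreted protein, with 108 CPM. Hpca was at 123 to 135 CPM and Dkk3 at 72.3 to 82.1 CPM in control libraries.

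The striatal genes were raised less in library 1, or not at all, with a median ratio of 1.73, against 5.24 for the transcription regulators and 3.95 for the synaptic genes. Ppp1r1b, which turns dopamine signals into phosphatase inhibition, was at 56.4 CPM in library 1, 23.8 CPM in library 2 and 16.8 to 20.7 CPM (median 19.3) in control libraries, and it is also expressed in cortical neurons. Adora2a, an adenosine receptor of striatal neurons, was at 1.75 CPM (29 reads) in library 1, inside the control range of 0.787 to 1.87 CPM (14 to 33 reads). Rasgrp2, a striatal activator of small GTPases, was at its lowest in library 1 at 43.0 CPM, against 54.2 to 62.3 CPM (median 60.9) in control libraries. Counting error is large for Adora2a at these depths, and a difference in it was not detectable.

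**Figure D2:**
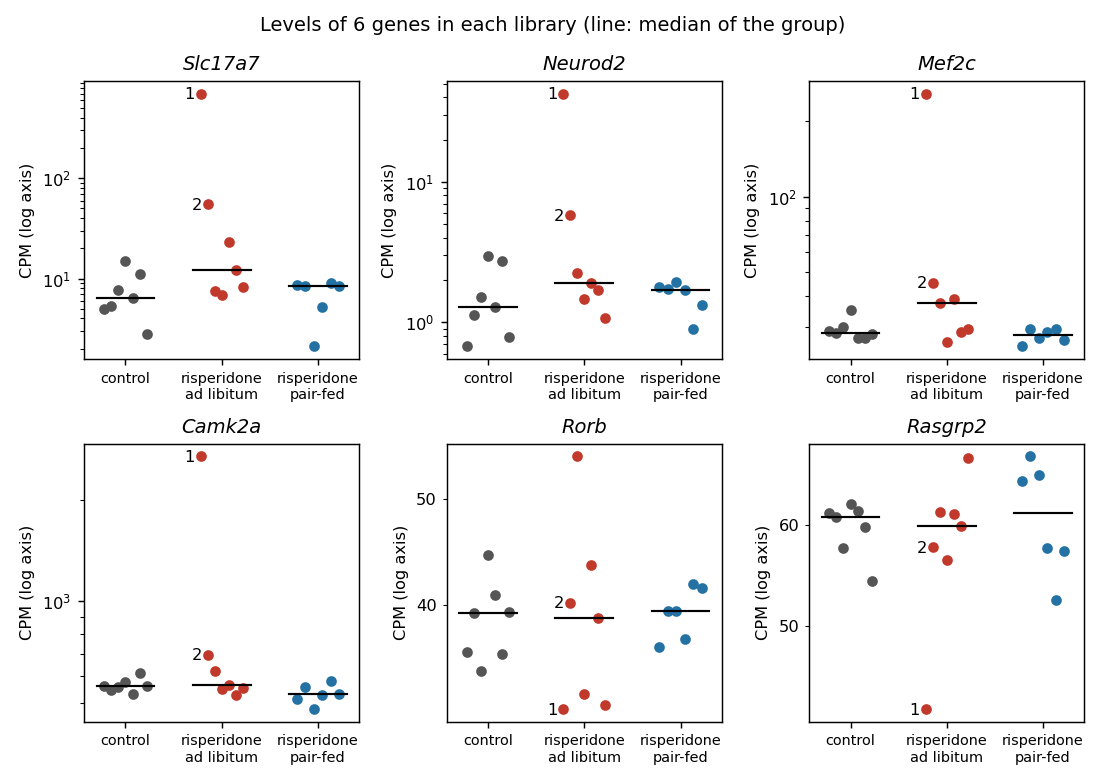
Level in CPM on a log axis of Slc17a7, Neurod2, Mef2c, Camk2a, Rorb and Rasgrp2 in each library, with a line at the group median and the numbers of ad libitum risperidone libraries 1 and 2. Library 1 is far above all others for the first 4 genes and below all others for Rorb (32.1 CPM) and Rasgrp2 (43.0 CPM).

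Per kilobase of exon, the order of the genes differed between library 1 and the controls. In the control libraries the highest median levels were those of Camk2a at 75.3, Nrgn at 48.5 and Hpca at 43.8 CPM per kb. Slc17a7 stood at 1.18, Neurod2 at 0.409 and Emx1 at 0.0260 CPM per kb. In library 1 Camk2a at 360 and Nrgn at 286 CPM per kb still led, and Slc17a7 followed at 130 CPM per kb, above Nptx1 at 74.2 and Hpca at 65.6. Neurod2, at 13.5 CPM per kb in library 1, was there above Rorb at 2.90, Rasgrp2 at 3.47 and Prox1 at 4.59, all of which exceeded it in controls.

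Ad libitum risperidone libraries were set against controls to see the drug diet at free intake. By edgeR's quasi-likelihood test with Benjamini-Hochberg adjustment, 0 of the 28 genes tested passed at an adjusted p under 0.05, against 0.0615% of all 17893 genes. At an unadjusted p under 0.05, 19 of the 28 were higher and 0 lower, where 7.14% of all genes were higher and 5.97% lower. Of the 28, 26 had a log2 fold change above 0, against 52.9% of all genes, and their median was 0.61 against 0.008 over all genes. No gene of the set had groups that did not overlap, against 0.106% of all genes higher and 0.224% lower. Without library 1, 0 of 28 passed (0.196% of all genes), 7 were higher and 2 lower at an unadjusted p under 0.05 (6.05% and 5.38% of all genes), and the median was 0.10. Without libraries 1 and 2, 0 of 28 passed (0.0778% of all genes) and the median was 0.05. In such tissue RNA, fewer cells of a type and less RNA per cell cannot be told apart.

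The largest estimate was that of Slc17a7, with 116 ± 258 CPM (SD, n = 7) in the ad libitum risperidone group and 7.60 ± 4.12 CPM (SD, n = 7) in controls. The log2 difference was 3.94 with an SE of 0.923 and an edgeR adjusted p of 0.105, and 5 of its 7 values exceeded the mean of controls. It was 1.35 (SE 0.430, adjusted p = 0.225) without library 1 and 0.64 (adjusted p = 0.548) without libraries 1 and 2. DESeq2, run as an alternative, called Slc17a7 at 3.94 with an adjusted p of 0.00345, and it called 0.615% of all genes. With library 1 left out, DESeq2 gave 1.32 with an adjusted p of 0.222. The log2 fold change of Neurod2 moved from 2.36 to 0.59 when library 1 was left out, Tbr1 from 1.59 to 0.07, Neurod6 from 1.58 to 0.58, Itpka from 1.54 to 0.26, Bhlhe22 from 1.38 to 0.36, Mef2c from 1.19 to 0.22 and Camk2a from 0.65 to 0.05. Fezf2 moved from 0.94 to 0.21, Nrgn and Bcl11b from 0.78 to 0.08 and 0.10, and Neurod1 from 0.77 to 0.18. None of these adjusted p values was under 0.05 with or without library 1.

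For Emx2, Cux2 and Hpca most of the estimate was still there without library 1. Emx2 moved from 0.92 (SE 0.309) to 0.69 (SE 0.287, edgeR adjusted p = 0.357), Cux2 from 0.22 to 0.18 and Hpca from 0.21 to 0.14. Arpp21 moved further, from 0.86 to 0.33, but the latter had a 95% interval of 0.14 to 0.51 and 6 of 6 libraries above the control mean (adjusted p = 0.157). The sign changed for 5 of the 28 genes without library 1. For Nptx1 (0.18 to −0.07), Dkk3 (0.03 to −0.06) and Rasgrp2 (−0.04 to 0.03) both 95% intervals held 0, and for Lmo3 and Lmo4 the interval without library 1 did not. Lmo3 was at 0.26 (95% interval −0.22 to 0.73) with library 1 and at −0.18 (−0.32 to −0.04, adjusted p = 0.300) without it, and Lmo4 was at 0.11 (−0.22 to 0.45) and −0.16 (−0.29 to −0.02, adjusted p = 0.355). Rorb, Prox1 and Rasgrp2 lay between −0.04 and 0.09 in both fits.

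**Figure D3:**
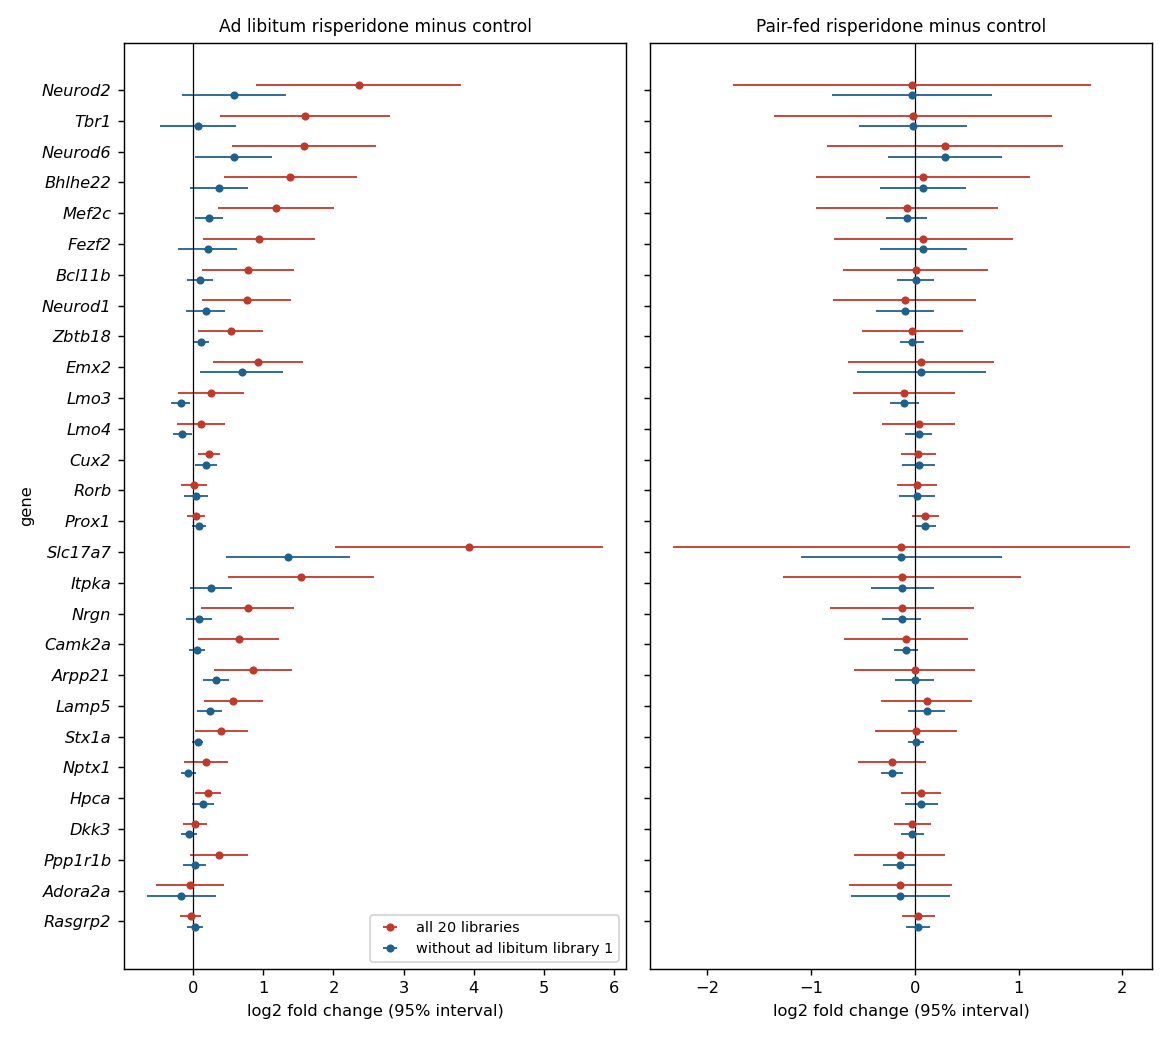
Log2 fold change with its 95% interval for the 28 genes tested, ad libitum risperidone minus control on the left and pair-fed risperidone minus control on the right, with all 20 libraries (red) and without ad libitum risperidone library 1 (blue). On the left 23 of the 28 estimates are closer to 0 without that library and 5 are farther from it, and on the right they stay in place while the intervals narrow.

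Pair-fed risperidone libraries were compared with controls to see the drug diet at limited intake. With all libraries in the model, 0 of the 28 genes passed, against 0.486% of all genes, and 0 had an unadjusted p under 0.05, against 3.06% higher and 3.6% lower among all genes. The median log2 fold change was −0.01, and 13 of the 28 were above 0, against 51.5% of all genes. Slc17a7 was at 6.97 ± 2.75 CPM (SD, n = 6) in pair-fed libraries, a log2 fold change of −0.13 against control with a 95% interval of −2.33 to 2.07. Although library 1 belongs to neither group, it entered through the estimate of the spread that the 3 groups share. Leaving it out narrowed that interval to −1.10 to 0.84, and 1 gene was then higher and 1 lower at an unadjusted p under 0.05 (4.3% and 4.77% of all genes).

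The standard errors of the set were wider with library 1 than those of most genes. In the pair-fed comparison the ratio of the SE with all libraries to the SE without library 1 had a median of 2.47 over the 28 genes, against 1.04 over all genes, and it exceeded 2 in 20 of the 28, against 2.44% of all genes. The largest ratio was that of Camk2a at 5.12, whose SE went from 0.290 to 0.0566, followed by Stx1a at 4.98, from 0.191 to 0.0383. The estimates themselves hardly moved, with Camk2a at −0.09 in both fits. Nptx1 was the 1 gene whose call changed. It was at 149.9 ± 12.02 CPM (SD, n = 6) in pair-fed and 175 ± 9.68 CPM (SD, n = 7) in control libraries, and 6 of 6 pair-fed libraries were below the control mean, with overlapping ranges. Its log2 fold change was −0.22 in both fits, with an edgeR adjusted p of 0.898 (SE 0.157) with all libraries and 0.0409 (SE 0.0525) without library 1, where 0.734% of all genes were called lower. It also passed in a fit to the pair-fed and control libraries alone (edgeR adjusted p = 0.0269), where 245 of 17497 genes were called. Nptx1 did not pass in limma-voom with quality weights on all libraries. Nor did it pass in edgeR without library 1 when no low-count filter was used.

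Pair-fed and ad libitum risperidone libraries, which were compared for the effect of food intake on the same diet, share the groups of the comparisons above and are no separate evidence. Of the 28 genes 0 passed, against 0.397% of all genes, 0 were higher and 19 lower in pair-fed libraries at an unadjusted p under 0.05 (6.09% and 7.44% of all genes), and the median log2 fold change was −0.65. Without library 1, 0 of 28 passed (0.728% of all genes), 1 was higher and 9 were lower at an unadjusted p under 0.05 (5.32% and 5.99% of all genes), and the median was −0.14. Slc17a7 had a log2 fold change of −4.07 (SE 0.995, edgeR adjusted p = 0.0748) with library 1 and −1.48 (SE 0.455, adjusted p = 0.164) without it. In both, 6 of 6 pair-fed libraries were below the ad libitum mean, which a few high libraries set at 116 and 18.9 CPM. The ranges overlapped, since the lowest ad libitum library, at 6.85 CPM, was inside the pair-fed range of 2.10 to 8.96 CPM. DESeq2 called Slc17a7 here (−4.06, adjusted p = 0.00159) and 0.95% of all genes. Without a low-count filter, edgeR also called Slc17a7 (−4.06, adjusted p = 0.0335), among 64 of 41670 genes. With library 1 left out, DESeq2 gave −1.44 (adjusted p = 0.178) and edgeR without a filter −1.48 (adjusted p = 0.0472). That last fit called 142 of 41459 genes. Without library 1, Arpp21 was at −0.33 (adjusted p = 0.128), Mef2c at −0.30 (adjusted p = 0.211) and Lmo4 at 0.19 (adjusted p = 0.240).

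Other genes of the same and of other cell types were read from 12 lists in the same libraries, as the mean log2 CPM of all genes of a list, with counts of genes over those tested. A list of 28 other pallial genes was at 5.92 in library 1 and 4.20 to 4.67 in the other 19, with 17 of 28 genes above 2 times the median of the others, 5 below that median and 3 lowest of all in library 1. The smallest p of the list in ad libitum risperidone against control was that of C1ql2, a secreted synaptic protein, which was lowest in library 1 at 8.83 CPM against 9.12 to 17.4 CPM (log2 fold change −0.41, edgeR adjusted p = 0.163). Next came Slc30a3, the zinc transporter of glutamate vesicles, at 122 CPM in library 1 against 3.28 to 11.4 CPM, and the kinase gene Ptk2b at 403 CPM against 23.5 to 70.5 CPM. Genes of telencephalic interneurons were at 3.44 against 1.73 to 2.71, with 4 of 7 above 2 times the median of the others and 2 below it. Vip, which encodes vasoactive intestinal peptide, was at 16.7 CPM against 0.911 to 2.03 CPM and Crhbp, a binding protein of corticotropin-releasing hormone, at 26.2 CPM against 6.51 to 16.3 CPM, while Pvalb, which encodes parvalbumin, was lowest in library 1 at 6.47 CPM against 7.32 to 21.6 CPM. Other striatal genes were slightly above the range of the rest, at 4.48 against 4.20 to 4.43, and 2 of 18 exceeded 2 times the median of the others. Of these 18, 9 were highest of all in library 1 and 4 lowest, against 19.6% and 16.4% of all genes tested. In that library 8 of the 18 were below the median of the others. Genes of neurons of any region were at 9.47 against 8.98 to 9.15.

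Lists of hypothalamic neurons, oligodendrocytes, ependyma and endothelium were below the range of the other libraries in library 1. Hypothalamic neuron genes were at 3.94 in library 1, against 4.61 to 4.86 in control, 4.24 to 4.72 in the other ad libitum and 4.13 to 4.84 in pair-fed libraries. Of the 21 tested, 19 were below the median of the others and 12 were the lowest of all. Pomc, the melanocortin precursor, was at 22.8 CPM against 26.5 to 64.2 CPM. Kiss1 had 0 reads in library 1, and its reads in the other libraries are not given here. The hypothalamic markers were thus present in every library as a list, and lowest in library 1. Oligodendrocyte genes were at 7.62 against 8.48 to 9.17, with 7 of 7 lowest there and Mbp, a myelin protein gene, at 1586 CPM against 2902 to 4900 CPM. Ependymal genes were at 2.31 against 2.58 to 3.30, and endothelial genes at 3.78 against 3.84 to 4.25. Thalamic genes (2.69 against 2.49 to 3.36), choroid plexus genes (2.15 against 1.05 to 3.36), astrocyte genes (7.74 against 7.55 to 7.96) and microglial genes (4.21 against 3.98 to 4.43) were within the range of the other libraries. Whether library 1 differs from the others in tissue, and what part this would have in the results above, was not tested.

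**Figure D4:**
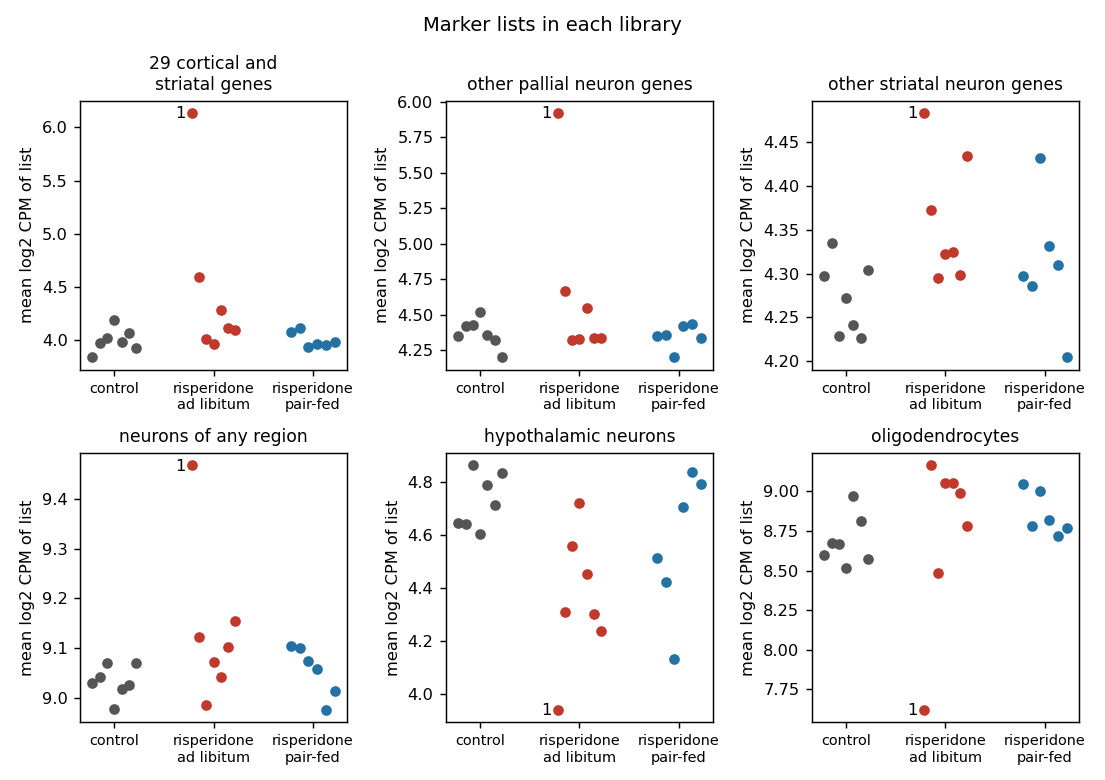
Mean log2 CPM of the 29-gene set and of 5 marker lists in each library, by group, with ad libitum risperidone library 1 numbered. Pallial genes are highest in library 1 (5.92), and hypothalamic neuron genes (3.94) and oligodendrocyte genes (7.62) are lowest there.

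By edgeR's test with adjustment over all genes, 0 of the 28 other pallial genes passed in any of the 3 comparisons, with or without library 1. Of the 18 other striatal genes tested, Penk, the enkephalin precursor, was the 1 that passed in ad libitum risperidone against control (log2 fold change 0.39 with an SE of 0.0655, adjusted p = 0.0343). It also passed as higher in pair-fed risperidone against control, which shares the controls, with and without library 1. Penk was at 206 CPM in library 1 and at 116 to 181 CPM elsewhere, and its call in the ad libitum comparison was also made without that library. Pde10a, a striatal phosphodiesterase gene, passed as lower in pair-fed than in control libraries in the fit without library 1 and not in that with all libraries. The astrocyte connexin gene Gjb6 passed as lower in the same comparison in both fits, and the ependymal gene Rsph1 passed as higher in pair-fed than in ad libitum risperidone libraries in the fit without library 1 and not in that with all libraries. Of the other lists, 0 genes passed in ad libitum risperidone against control with all libraries.

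Outside the 29 genes, those with large ratios in library 1 included Igfn1 at 136 times the median of the other 19, Rtn4rl2 at 68.9, Mas1 at 25.1, Slc30a3 at 22.1, Kcnh3 at 18.96, Ddn at 18.8, Ankrd33b at 16.5, Gabrd at 15.6 and Kcng1 at 13.7. Ddn, which encodes the dendritic protein dendrin, was at 804 CPM in library 1 against 34.8 to 82.5 CPM in the others. Slc30a3 belongs to the list of other pallial genes.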

How the data were processed

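RNA of 20 libraries was sequenced, and the authors deposited 1 table of raw read counts per gene, as whole numbers. STAR, featureCounts and DESeq2 with the builds GRCm38 and mm10 are named, per the submitters' processing notes. The sources used here do not give versions, annotation release or strand setting, so the 8 set members with exons overlapping a gene on the opposite strand are uncertain. Groups came from the labels, which name no batch. Of 55471 gene identifiers, 55230 matched GENCODE.

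Counts were tested with edgeR 4.0.16 in R 4.3.3 (quasi-likelihood F test, TMM scaling, filterByExpr with a minimum count of 10, 1 coefficient per group, 17893 genes, two-sided, Benjamini-Hochberg over all genes tested). The common biological coefficient of variation was 11.3%. Levels are TMM-scaled CPM, and log values used a prior count of 2. The fits were also run on simulated counts. These held no library set apart as ad libitum risperidone library 1 is, so that run does not bear on its effect. Alternatives were RLE and upper-quartile scaling, no filter or a mean of at least 1 CPM, DESeq2 1.42.0, limma 3.58.1 voom with quality weights, robust dispersion, only the groups compared, a replicate block, and leaving out each library or ad libitum risperidone libraries 1 and 3. Leaving out libraries 1 and 2, and leaving out library 1 in DESeq2 or with no filter, were chosen after seeing the data.

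Members and lists were chosen with earlier results of these data known. Every member is accounted for. The 12 with the largest ratio of the highest library to the median of 20, and any member called, are given in full, with up to 3 genes per marker list by smallest p and the 10 other genes with the largest ratio in library 1, of which 1 is not reported here. Pde10a and Kiss1 were named after their values were seen.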

Additional observations from a re-analysis of the deposited data

Results flagged for a closer look

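In 26 of the 87 combinations of a member gene and a group, the highest or lowest library lay far from the rest of its group by Dixon's test, which chance gives in about 1 of 20 groups. The genes share libraries, so these are not separate events. They were also chosen with earlier results of these data known, so the count is only a description. No share over all genes was taken for this test. Ad libitum risperidone library 1 was the highest of the 20 libraries for 19.6% of all genes tested and the lowest for 16.4%. In 22 of the 26 combinations that library was the high one. Its levels were 699 CPM for Slc17a7, 42.4 for Neurod2, 19.5 for Neurod6, 14.9 for Neurod1, 49.8 for Tbr1, 5.93 for Emx1, 15.8 for Fezf2, 258 for Mef2c, 146 for Zbtb18, 52.4 for Bhlhe22, 80.4 for Bcl11b, 238 for Lmo3 and 92.0 for Lmo4. For the genes of synapses and signalling they were 2689 CPM for Camk2a, 416 for Nrgn, 81.0 for Itpka, 152 for Stx1a, 387 for Nptx1, 336 for Arpp21, 47.5 for Lamp5 and 108 for Dkk3, and for the striatal gene Ppp1r1b 56.4. The same library was far below its group for Prox1, at 38.5 CPM. The other 3 were control libraries, namely library 4 for Mef2c at 35.0 CPM (high), library 1 for Stx1a at 49.2 CPM (low) and library 7 for Ppp1r1b at 16.8 CPM (low).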

How the results depend on the processing

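The number of members called was 0 in each comparison with all libraries, and it was 1 with DESeq2 in ad libitum risperidone against control (Slc17a7), 1 with DESeq2 and 1 with no low-count filter in pair-fed against ad libitum risperidone (Slc17a7), and 1 in pair-fed risperidone against control with only the groups compared, without ad libitum libraries 1 and 3, and without libraries 1 and 2 (Nptx1). Of all genes, the fits that called 1 member called 110, 170, 64, 245, 250 and 165, in that order. With each library left out in turn, the number of members called ranged from 0 to 1 in pair-fed risperidone against control. The 1 came without ad libitum library 1, where 166 of all genes were called. In the other comparisons the number was 0 throughout. The members' median log2 fold change in ad libitum risperidone against control, 0.61 with all libraries, was 0.24 with DESeq2, 0.13 with voom, 0.43 with the replicate block, 0.12 without ad libitum libraries 1 and 3, 0.054 without libraries 1 and 2, and from 0.10 (without ad libitum library 1) to 0.69 with single libraries left out. In pair-fed against ad libitum risperidone, where it was −0.65, it was −0.73 without the filter, −0.35 with DESeq2, −0.16 with voom, −0.50 with the block, −0.15 without libraries 1 and 3, −0.072 without libraries 1 and 2, and from −0.73 to −0.14 (without ad libitum library 1) with single libraries left out. In pair-fed risperidone against control single libraries moved it from −0.04 to 0.02. DESeq2 replaced the count of ad libitum library 1 as an outlier in 6 of 28 members (Arpp21, Bcl11b, Camk2a, Itpka, Mef2c and Nrgn), and in 48 of all 17893 genes. In ad libitum library 3 it replaced the counts of 34 genes, of which 0 were members. Voom gave library 1 a weight of 0.165, against 0.295 for library 3 and at least 0.80 for the others. The causes of the differences between settings were not tested.

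Sign changes are listed where a 95% interval excluded 0 with all libraries or under the alternative. In ad libitum risperidone against control Tbr1 was −0.13 without ad libitum libraries 1 and 3, Lmo3 −0.18 without library 1, −0.17 without libraries 1 and 3 and −0.16 without 1 and 2, Lmo4 −0.16, −0.14 and −0.20 in the same order, Nrgn −0.042 and Camk2a −0.0015 without libraries 1 and 2. In pair-fed against ad libitum risperidone Tbr1 was 0.020 with voom and 0.11 without libraries 1 and 3, Fezf2 was 0.051 without libraries 1 and 2, and Lmo4 was 0.19 without library 1, 0.18 without 1 and 3 and 0.24 without 1 and 2. With single libraries left out, Lmo3 ranged from −0.18 to 0.33 and Lmo4 from −0.16 to 0.17 in the former comparison, and Lmo4 from −0.14 to 0.19 in the latter, with the sign changed without ad libitum library 1. With library 1 left out, DESeq2 called 1 member in pair-fed risperidone against control (Nptx1), where it called 248 of all 17851 genes. No filter called 1 in pair-fed against ad libitum risperidone (Slc17a7), where it called 142 of all 41459 genes. Both settings were chosen after seeing the data. Under DESeq2 and no filter in turn, the medians were then 0.12 and 0.099 in ad libitum risperidone against control and −0.14 and −0.12 in pair-fed against ad libitum risperidone. Lmo3 was −0.18 and −0.19 and Lmo4 −0.16 and −0.17 in the former, and Lmo4 0.19 and 0.20 in the latter. With the replicate block, 0 members were called in each comparison, against 1, 65 and 48 of all genes. Of 19 correlations between libraries with the same replicate number, 2 exceeded 0.1, in a range of −0.158 to 0.304. Libraries with different numbers were not set beside them, so whether the numbers pair the libraries was not tested. Depth limits Emx1 and Adora2a, with few reads per library.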
